A study of Mus musculus with 3 samples.

Results

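The 9 immediate early and dissociation response genes, Fos, Junb, Egr1, Btg2, Zfp36, Klf4, Id3, Errfi1 and Hspa1a, were compared between control and IRE1α knockout mice in the beta, alpha and delta cells of pancreatic islets. They were taken by name from the gene tables that the authors deposited for each cell type, which together list 8237 genes. The islets came from 2 knockout mice (genotype IRE1[alpha][beta]-/-, a beta-cell knockout of IRE1α, a sensor of endoplasmic reticulum stress) and from 1 floxed control mouse (IRE1[alpha]fl/fl). All 3 mice were NOD/ShiLtJ, a strain that develops autoimmune diabetes spontaneously, were 5 weeks old, and had received tamoxifen, which switches on an inducible Cre recombinase. The sources used here do not give the promoter that drives Cre or say whether the control carried it. The islets were cultured overnight and then taken apart with accutase before single-cell libraries were made with 10X Genomics droplets. Whether the control and knockout islets were handled alike in time was not tested.

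Immediate early genes are transcribed within minutes of a stimulus without new protein synthesis, through transcription factors already present in the cell such as the serum response factor and CREB. Growth factors, calcium entry, cell stress and the enzymatic release of cells from tissue all induce them, and for that reason the same set is known in single-cell work as a dissociation signature. Many of their products are transcription factors, and others end the response by degrading short-lived mRNAs or by blocking growth factor receptors. Heat shock genes such as Hspa1a answer to misfolded cytosolic protein through another factor, HSF1. In beta cells, glucose and the calcium entry that accompanies insulin secretion also induce Fos, Egr1 and Junb.

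Promoter sequences are shown for 5 of the genes whose transcripts were higher in the knockout and for Hspa1a, which was lower, because the inputs that drive the families are read there. They are taken from RefSeq (GRCm38.p6, the same assembly as mm10), run 5′ to 3′ on the strand of the gene, and cover 170 bases before the annotated start and 10 bases from it on. Capitals mark matches to the motifs searched. The stretches lie at chr12:85473720-85473899 on the plus strand, chr8:84978739-84978918 on the minus strand, chr1:134079146-134079325 on the minus strand, chr7:28379219-28379398 on the minus strand, chr4:150854900-150855079 on the plus strand (its second annotated start) and chr17:34972147-34972326 on the minus strand.
Fos: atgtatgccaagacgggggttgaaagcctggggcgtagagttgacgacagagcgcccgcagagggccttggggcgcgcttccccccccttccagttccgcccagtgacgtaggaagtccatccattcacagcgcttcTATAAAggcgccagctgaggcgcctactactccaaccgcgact
Junb: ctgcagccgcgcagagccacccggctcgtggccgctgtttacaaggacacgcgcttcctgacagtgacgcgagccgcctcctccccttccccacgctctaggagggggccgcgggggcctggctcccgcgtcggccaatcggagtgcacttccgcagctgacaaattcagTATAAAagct
Btg2: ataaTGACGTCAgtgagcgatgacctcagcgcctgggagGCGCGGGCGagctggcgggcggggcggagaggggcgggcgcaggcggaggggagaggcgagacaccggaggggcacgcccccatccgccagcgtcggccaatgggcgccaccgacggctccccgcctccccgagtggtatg
Zfp36: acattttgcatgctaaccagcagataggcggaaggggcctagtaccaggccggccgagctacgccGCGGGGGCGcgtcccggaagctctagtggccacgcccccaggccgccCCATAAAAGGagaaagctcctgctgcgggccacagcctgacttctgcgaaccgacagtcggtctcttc
Errfi1: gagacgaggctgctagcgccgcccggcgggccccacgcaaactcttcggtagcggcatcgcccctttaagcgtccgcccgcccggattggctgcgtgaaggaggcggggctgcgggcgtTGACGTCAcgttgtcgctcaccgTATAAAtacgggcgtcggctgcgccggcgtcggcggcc
Hspa1a: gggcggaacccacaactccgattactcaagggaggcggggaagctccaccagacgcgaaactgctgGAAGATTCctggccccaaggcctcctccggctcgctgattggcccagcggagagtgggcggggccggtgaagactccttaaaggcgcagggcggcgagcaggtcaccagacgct

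Over the whole window of 300 bases, which begins 250 bases before the start, the motifs were searched on both strands in the 8 genes that had a sequence. The cAMP response element TGACGTCA, which CREB binds, was found in Btg2 (bases -166 to -159 from the start) and Errfi1 (-51 to -44 from its second start), against 1.79% of 32851 RefSeq windows of the same length. The CArG box, which the serum response factor binds, was found in Zfp36 (-58 to -49), against 1.63% of windows. The Egr site GCGNGGGCG was found in Btg2, Zfp36 and Klf4, with 2 matches in Klf4, against 5.55% of windows. The heat shock element GAANNTTC was found in Hspa1a alone among these genes (-104 to -97), against 7.86% of windows, and the AP-1 site TGANTCA, found in 7.81% of windows, in none of them. The TATA box TATAAA, present in 13.6% of windows, was found in Fos, Junb and Errfi1; that of Junb lies at the RefSeq start itself, which is 30 bases upstream of the GENCODE start. The RefSeq starts used for Zfp36 and Id3 and the second of Errfi1 lie inside the GENCODE gene models. None of the motifs was matched in the Id3 window. The matches did not overlap each other, and a match describes the letters only, not the binding of a factor. Sites outside the window, or with letters other than these motifs, were not searched for. A gene without a match is therefore not shown to lack that input.

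**Figure D1:**
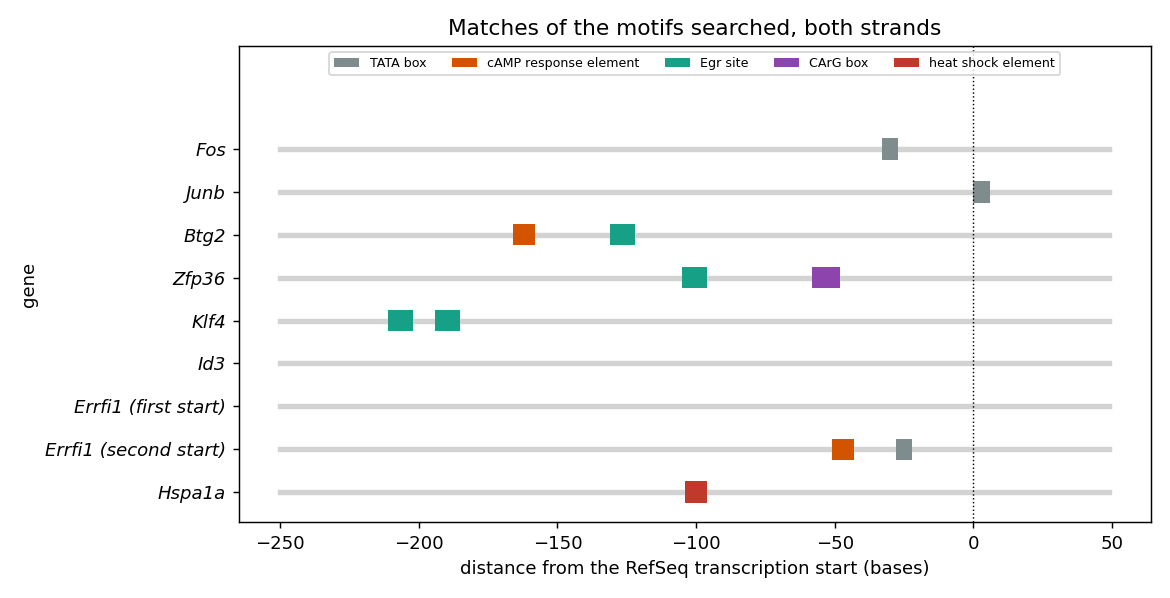
Positions of motif matches along the 300-base RefSeq windows of 8 genes (x axis: distance from the annotated transcription start in bases; 1 line per start, coloured boxes for matches on either strand). Zfp36 carries the only CArG box and Hspa1a the only heat shock element, and the windows of Id3 and of the first Errfi1 start hold no match.

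The values are mean UMIs per cell, a UMI (unique molecular identifier) standing for 1 captured transcript, of those genes that the authors' deposited tables list as different between the genotypes (largest adjusted p 0.00998 for beta, 0.0101 for alpha and 0.0103 for delta cells). Cell numbers were inferred, each as the smallest number that turned nearly all values of its column into whole UMIs. This gave 829 control and 815 knockout beta cells, with both knockout mice pooled. It gave 142 control and 304 and 177 knockout alpha cells, and 101 control and 138 and 78 knockout delta cells. The UMI counts and intervals below rest on these inferred numbers. The alpha and delta knockout columns carry a number that was not matched to a particular mouse, and are named first and second column here. A ratio is knockout over control; in alpha and delta cells it uses the unweighted mean of both knockout columns, given with its SD (n = 2). Intervals in brackets are exact 95% intervals that cover counting error only, and for alpha and delta cells they belong to the ratio over all knockout cells pooled. With 1 control mouse no difference could be set against the spread between control mice, so no test backs a single gene in beta cells. Higher and lower give the sign of a difference, and a gene was past the fold when it differed by at least 1.5-fold. Ern1, the gene of IRE1α, is listed in beta cells only, at 0.509 UMIs per control and 0.742 per knockout cell. Since a 10X UMI reads 1 end of a transcript and the sources do not give the removed exons, this level does not check the genotype labels. Depth per cell was known only through the listed genes. Their sum was 31552 UMIs per control and 24796 per knockout beta cell. It was 2534 against 2214 and 2271 in alpha cells, and 3674 against 3070 and 2643 in delta cells. Without the hormone genes Ins1, Ins2, Iapp, Gcg, Sst, Ppy and Pyy the sums were 9396 against 11167 in beta cells. They were 1637 against 1609 and 1603 in alpha, and 1840 against 2114 and 1881 in delta cells. In beta and delta cells the knockout thus had the lower sum with these hormones and the higher sum without them.

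Coverage of the 9 genes differed between the tables. For beta cells 8 of them are listed (all but Klf4), for delta cells 6 (Fos, Junb, Egr1, Btg2, Zfp36 and Errfi1) and for alpha cells 3 (Egr1, Klf4 and Id3). Egr1 is the 1 gene of the 9 found in all 3 tables. A gene that a table does not list was not analysed in that cell type, so no value stands for its absence.

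In beta cells, 7 of the 8 listed genes were above the control in the knockout and Hspa1a was below it, in a table where 95% of genes were higher (median log2 fold 0.54). By size, 5 genes were higher by at least 1.5-fold, which held for 45.7% of listed genes, and 1 was lower, which held for 2.47%. In delta cells, all 6 listed genes were higher, against 81.4% of that table, and all 6 by at least 1.5-fold, against 41.1%, and both knockout columns lay above the control for each of them, against 71.4%. In alpha cells, Egr1 was higher in both knockout columns (37.1% of that table, where 43% of genes were higher on average) and Klf4 and Id3 were lower in both (51.1%); the last 2 were past the fold, as were 30.1% of listed genes in that direction, while Egr1 was not, against 10.8% in its direction. Centring each table on its median changed the split of all listed genes past the fold from 3741 higher and 202 lower to 1314 and 343 in beta cells, from 20 and 56 to 47 and 26 in alpha cells and from 95 and 37 to 45 and 42 in delta cells. The members were picked with these values in view, so the counts describe them and are not evidence for the set.

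**Figure D2:**
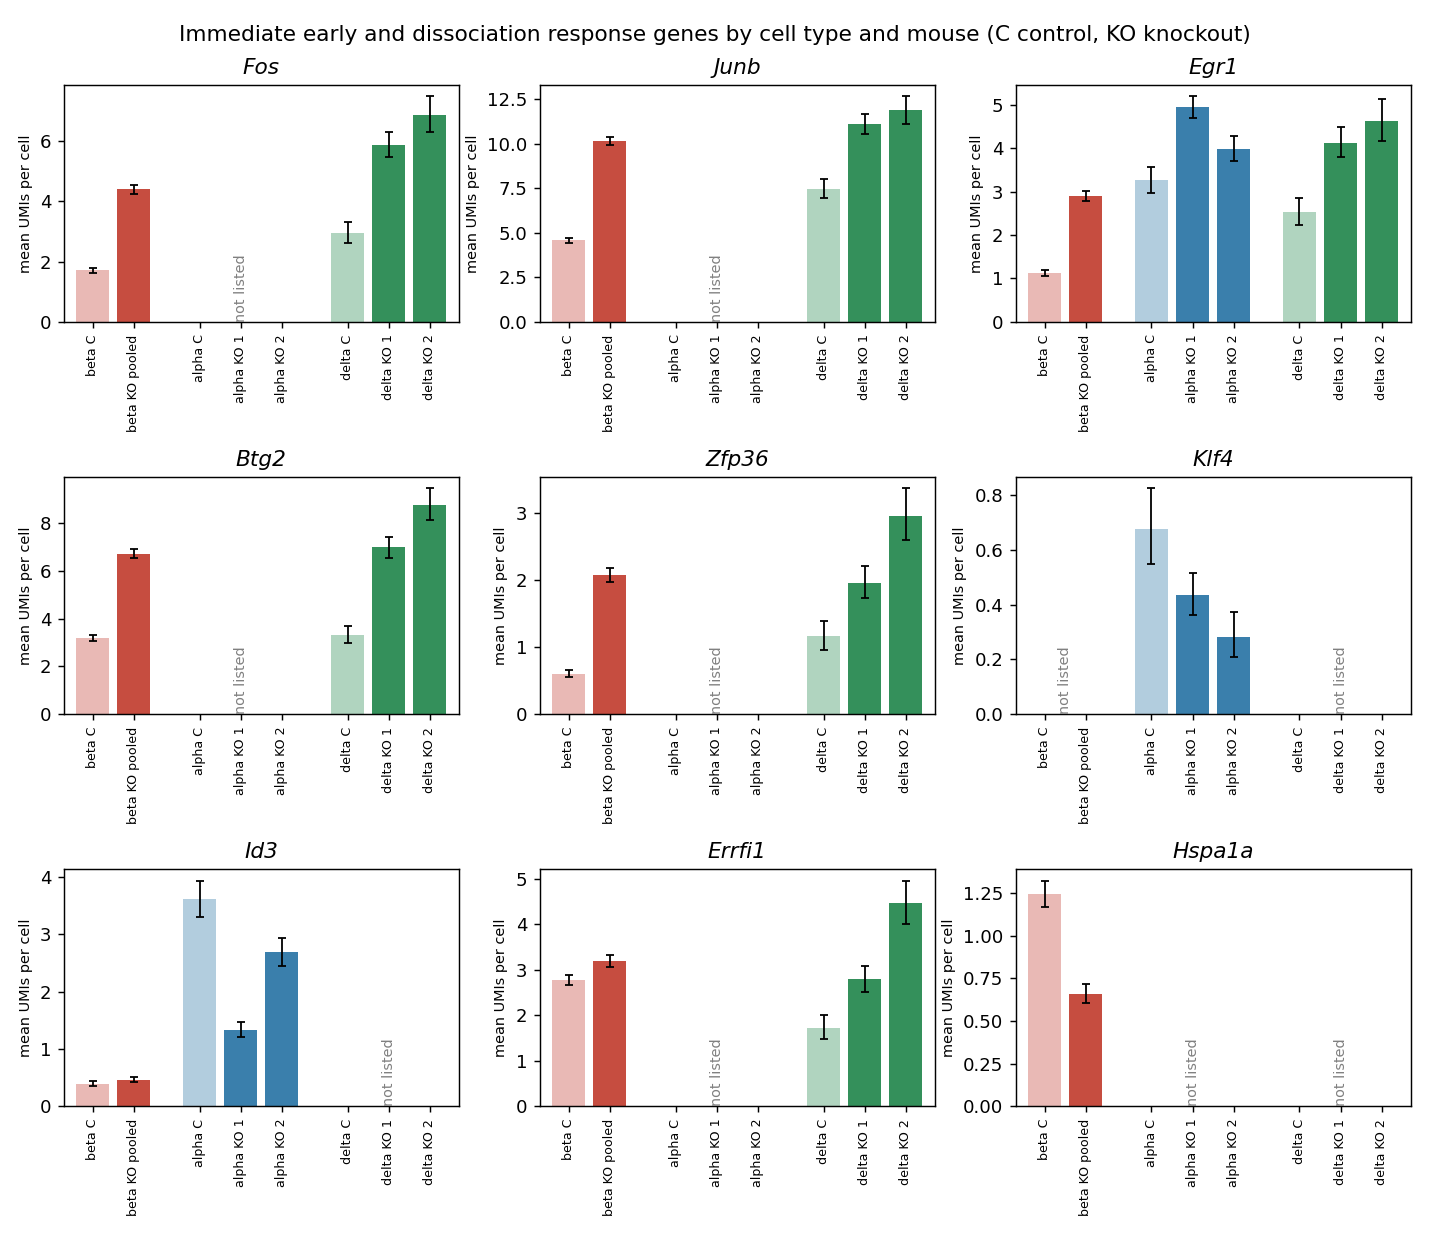
Mean UMIs per cell (y axis, from 0) of the 9 genes in each table column, by cell type (pale bars: the control mouse; dark bars: knockout, pooled in beta cells and 1 bar per knockout column in alpha and delta cells; error bars: exact 95% Poisson intervals of counting only). In delta cells the knockout bars of all 6 listed genes exceed the control, and in alpha cells the knockout bars of Id3 differ by 2.01-fold from each other.

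Both AP-1 subunit genes were higher in knockout beta and delta cells. Fos, which pairs with Jun proteins to form AP-1 (ENSMUSG00000021250, mm10 chromosome 12, 85473890 to 85477273), had 1.71 UMIs per beta cell of the control and 4.40 in the knockout, which gave a ratio of 2.57 [2.42 to 2.73]. In delta cells it had 2.96 in the control and 5.88 and 6.88 in the knockout columns, a ratio of 2.16 (mean 6.38 ± 0.713; 2.11 [1.86 to 2.40] over all cells). Both knockout delta columns lay far above the control and close to each other. Junb, an AP-1 partner that also restrains Jun (ENSMUSG00000052837, chromosome 8, 84974484 to 84978718), had 4.57 UMIs per beta cell in the control and 10.2 in the knockout, at a ratio of 2.23 [2.14 to 2.31]. In delta cells it had 7.46 in the control and 11.1 and 11.9 in the knockout columns, a ratio of 1.54 (mean 11.5 ± 0.534; 1.53 [1.41 to 1.66] over all cells). The first column alone was at 1.49, just under the fold used, so the size call for Junb in delta cells rests on the second.

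Egr1, a zinc-finger transcription factor that is among the quickest genes to respond (ENSMUSG00000038418), was higher in the knockout in every cell type, with the size falling from beta through delta to alpha cells. In beta cells it had 1.12 UMIs per cell in the control and 2.89 in the knockout, which gave a ratio of 2.59 [2.40 to 2.80]. In delta cells it had 2.53 in the control and 4.13 and 4.63 in the knockout columns (mean 4.38 ± 0.352), a ratio of 1.73 (1.70 [1.48 to 1.96] over all cells). In alpha cells it had 3.27 in the control and 4.94 and 3.99 in the knockout columns (mean 4.47 ± 0.676), a ratio of 1.37 (1.41 [1.27 to 1.56] over all cells). The alpha columns gave ratios of 1.51 and 1.22, so the first alone would pass the fold. Klf4, another zinc-finger factor, which is linked to growth arrest (ENSMUSG00000003032, chromosome 4, 55527143 to 55532466), went the other way in alpha cells, from 0.676 in the control to 0.434 and 0.282 in the knockout columns (mean 0.358 ± 0.107). Its ratio was 0.530 (0.560 [0.435 to 0.724] over all cells), on 96 control and 182 knockout UMIs.

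The 2 genes of RNA decay and growth arrest among the 9 were higher in knockout beta and delta cells. Zfp36 encodes tristetraprolin, which binds AU-rich elements and directs short-lived mRNAs to decay (ENSMUSG00000044786, chromosome 7, 28376784 to 28380253). Beta cells had 0.597 UMIs in the control and 2.07 in the knockout, and the ratio of 3.47 [3.14 to 3.85] was the largest of the 9 genes in any cell type. In delta cells it had 1.16 in the control and 1.96 and 2.96 in the knockout columns, a ratio of 2.12 (mean 2.46 ± 0.711; 2.00 [1.63 to 2.47] over all cells). Btg2, an antiproliferative gene that recruits the mRNA deadenylation machinery (ENSMUSG00000020423, chromosome 1, 134075170 to 134079120), had 3.20 UMIs per beta cell in the control and 6.71 in the knockout, at a ratio of 2.10 [2.00 to 2.20]. In delta cells it had 3.32 in the control and 6.98 and 8.77 in the knockout columns, a ratio of 2.37 (mean 7.87 ± 1.27; 2.30 [2.04 to 2.59] over all cells). Btg2 had the highest ratio of the 6 genes in delta cells, and Zfp36 the widest gap between its knockout columns after Errfi1, at 1.51-fold.

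Errfi1 separated the cell types among the genes that were higher. It encodes MIG6, a feedback inhibitor of the epidermal growth factor receptor (ENSMUSG00000028967, chromosome 4, 150853919 to 150868892). In beta cells it had 2.77 UMIs per cell in the control and 3.19 in the knockout. That ratio, 1.15 [1.09 to 1.22], lay under the median of the table. In delta cells it had 1.72 in the control and 2.78 and 4.46 in the knockout columns (mean 3.62 ± 1.19), a ratio of 2.10 (1.97 [1.67 to 2.33] over all cells). Both delta columns were above the control, but they differed from each other by 1.60-fold.

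Id3, a helix-loop-helix inhibitor that keeps differentiation factors off DNA (ENSMUSG00000007872, chromosome 4, 136143497 to 136145755), had opposite signs in the cell types that list it. Beta cells had 0.388 UMIs in the control and 0.465 in the knockout, at a ratio of 1.20 [1.03 to 1.39]. In alpha cells it had 3.61 in the control and 1.34 and 2.69 in the knockout columns (mean 2.01 ± 0.957), a ratio of 0.557 (0.508 [0.455 to 0.567] over all cells). Both knockout columns were below the control, but the second, at a ratio of 0.744, was not past the fold, and the first was at 0.370.

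Hspa1a, the stress-inducible cytosolic HSP70 chaperone (ENSMUSG00000091971, chromosome 17, 34969190 to 34972156), was the 1 gene of the 8 listed in beta cells that had fewer UMIs in the knockout. It went from 1.24 to 0.659 per cell, a ratio of 0.529 [0.476 to 0.588]. Hspa1b, its near-identical neighbour, went from 0.357 to 0.188, a ratio of 0.526 [0.430 to 0.641]. The RefSeq windows of the pair differ at 4 of 300 bases, and reads may be split between the copies by the authors' counting, so the values of each are uncertain while both had the same direction.

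**Figure D3:**
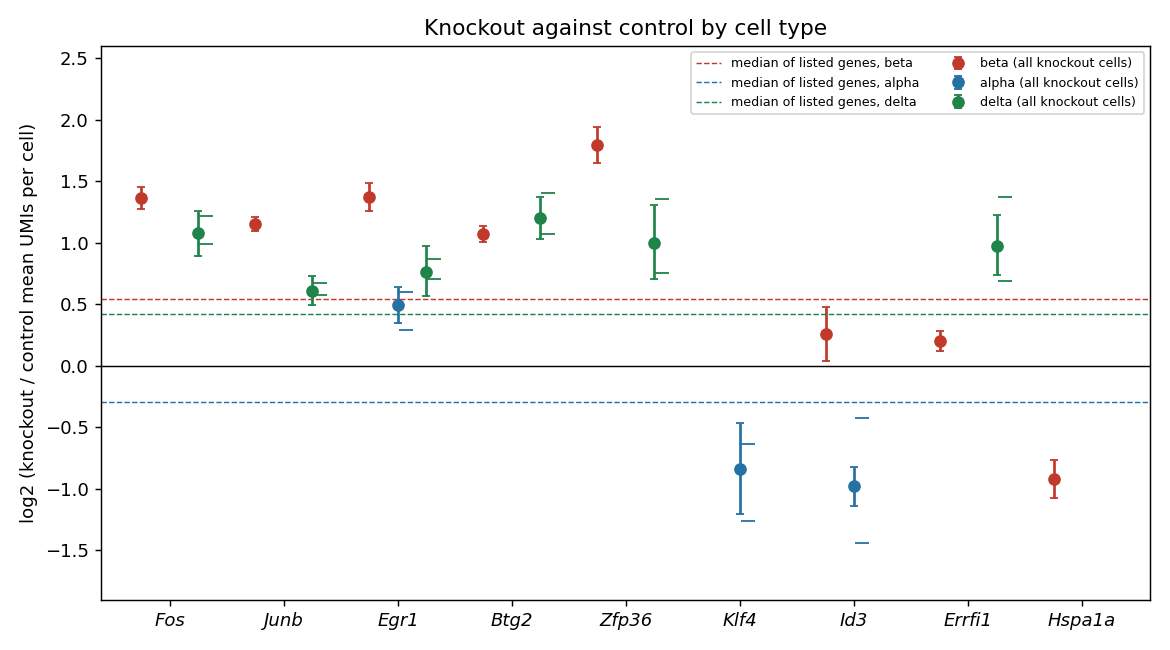
Log2 ratio of knockout over control mean UMIs per cell (y axis) for the 9 genes (x axis) by cell type (points: all knockout cells pooled, with 95% counting intervals; short ticks: each knockout column in alpha and delta cells; dashed lines: the median of all listed genes of that table). Fos, Junb, Egr1, Btg2 and Zfp36 lie above the beta and delta medians, Errfi1 lies above the delta median but below the beta median, and Klf4, Id3 (alpha) and Hspa1a (beta) lie below 0.

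Among listed beta-cell genes the rarer ones had the larger ratios, so each member was placed among genes of similar abundance. Genes are listed only by their adjusted p, which for a rare gene takes a larger fold. The part of this threshold in the trend was not tested. Listed beta-cell genes under 0.1 UMIs per control cell had a median ratio of 2.37, and those from 1 to 3 UMIs a median of 1.20, where 13.1% passed the fold upward. Among genes within 1.5-fold of its own control level, Zfp36 had a higher log2 fold than 99.8% of 1663 genes and Egr1 than 99.4% of 1032. For Junb this share was 99.2% of 252 genes, for Fos 99.0% of 677 and for Btg2 97.8% of 360. These 5 genes thus stood near the upper end of beta-cell genes with like levels. Errfi1 stood at 48.0% of 423 genes and Id3 at 17.5% of 1945, within the bulk, and Hspa1a at 1.25% of 963, near the lower end. The same placing in delta cells, over 28 to 40 listed genes each, ran from 80.0% for Egr1 to 97.3% for Btg2. These shares describe the listed genes of these libraries and were not tested.

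Compared between cell types on the same scale, the ratio of ratios (delta over beta, all cells pooled, with a 95% interval from counting error by the normal approximation) was 0.821 [0.714 to 0.943] for Fos, 0.686 [0.627 to 0.751] for Junb and 0.657 [0.561 to 0.769] for Egr1. It was 0.577 [0.460 to 0.722] for Zfp36. These 4 genes had smaller ratios in delta than in beta cells beyond counting error. Btg2 was at 1.10 [0.965 to 1.24], an interval that spans 1, and Errfi1 at 1.71 [1.44 to 2.04], the 1 member with an interval above 1. Alpha over beta was 0.543 [0.479 to 0.616] for Egr1 and 0.424 [0.353 to 0.510] for Id3, and delta over alpha was 1.21 [1.02 to 1.44] for Egr1. Whether such differences exceed the spread between mice was not tested, since the beta-cell table pools the knockout mice.

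After centring each table on its own median, the order changed for Egr1, whose log2 fold became 0.83 (beta), 0.74 (alpha) and 0.37 (delta). Centring left Fos at 0.82 in beta and 0.69 in delta cells and Zfp36 at 1.26 and 0.67. It moved Btg2 in beta cells (0.53), Junb and Egr1 in delta cells (0.21 and 0.37) and Id3 in alpha cells (-0.55) to less than the fold used, which is 0.58 on the log2 scale. Dividing by the listed UMI total did the same to Hspa1a (-0.57) and took Egr1 in alpha cells (0.63) and Id3 in beta cells (0.61) past it. After centring, Errfi1 and Id3 were below 0 in beta cells (-0.34 and -0.28), so their direction there holds for UMIs per cell and not relative to the other listed genes.

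In the control mouse the genes also differed in level between cell types. Egr1 had 3.27 UMIs per alpha cell [2.98 to 3.58], 2.53 per delta cell [2.23 to 2.86] and 1.12 per beta cell [1.05 to 1.19], and no neighbours in that order had overlapping counting intervals. Id3 had 9.30 times as many UMIs per alpha cell as per beta cell. Junb, Fos and Zfp36 had 1.63, 1.73 and 1.94 times as many per delta as per beta cell, and Errfi1 0.622 times. For Btg2 the intervals of beta (3.20 [3.08 to 3.32]) and delta cells (3.32 [2.97 to 3.69]) overlapped. UMIs captured in all per alpha or delta cell were not known, so part of these gaps can be depth, which cannot be told apart from level here.

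The knockout columns of 1 cell type were not alike. In delta cells the second column exceeded the first for all 6 members, while it did so for 36.4% of the 231 listed genes, and the listed UMI total of the second column was the lower. In alpha cells the second column exceeded the first for Id3 only among the 3 members, and for 51.6% of the 186 listed genes. The second column over the first was 2.01 for Id3 in alpha cells, 1.60 for Errfi1 and 1.51 for Zfp36 in delta cells, and 0.651 for Klf4 in alpha cells, while it lay between 1.07 and 1.26 for Fos, Junb, Egr1 and Btg2 in delta cells.

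When each mouse's UMIs were summed, edgeR's quasi-likelihood test over all listed genes, with its spread taken from the 2 knockout columns, gave Benjamini-Hochberg adjusted p-values under 0.05 for all 6 members in delta cells. They were 1.79e-05 for Btg2, 0.000576 for Fos, 0.00837 for Errfi1, 0.0203 for Zfp36, 0.0263 for Junb and 0.0363 for Egr1, in a table where it called 12.1% of genes higher and 9.96% lower. With the listed UMI total as offset all 6 were called too, the highest adjusted p being 0.0143 for Egr1, but 35.5% of the table was then called higher and 3.46% lower. In alpha cells none of the 3 members passed with edgeR (adjusted p 0.208 for Egr1, 0.167 for Id3 and 0.371 for Klf4), where it called 0% of genes higher and 2.15% lower. Without adjustment Id3 was under 0.05 (0.0458), like 47 of 186 genes on the lower side. With the listed UMI total as offset no member passed either, while 1.61% of genes were called higher and 3.23% lower. Without adjustment Egr1 (0.00928) was then among 17 genes under 0.05 on the higher side and Id3 (0.0197) among 21 on the lower side. The test had 1 residual degree of freedom. It was run only on genes already chosen by the authors because they differed in these very cells, which makes its p-values too small. The members were also picked with these values in view. Of the wider list read below, the delta-cell genes outside the members were not called with the cell number as offset. With the listed UMI total as offset, Jund, Ier2, Socs3 and Hsp90aa1 of these were called.

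The wider early response was read from a list of 109 genes grouped by role. The beta-cell table lists 75 of them (68.8%, against 44.2% of all genes tested, a number inferred from the authors' p-values). That of alpha cells lists 9 (8.26% against 1.15%) and that of delta cells 16 (14.7% against 1.5%). The 109 count 2 genes under both an older and a newer symbol. Of the listed genes, 73 of 75 were higher in knockout beta cells (95% of that table) and 15 of 16 in delta cells (81.4%), while 7 of 9 were lower in alpha cells (106 of 186 genes of that table). Past the fold were 47 higher and 2 lower genes in beta cells (45.7% and 2.47% of the table), 0 and 5 in alpha cells (10.8% and 30.1%) and 13 and 1 in delta cells (41.1% and 16%). Without the 9 members, which are part of the list, 67 of 100 genes were listed for beta cells, 6 for alpha and 10 for delta, with medians of 0.71, -0.64 and 0.77. The median log2 fold was 0.72 in beta (0.54 over all listed genes), -0.75 in alpha (-0.29) and 0.95 in delta cells (0.42). Delta and beta cells shared 15 of these genes, 93.8% of the delta and 20% of the beta genes, and beta and alpha cells shared 5, 6.67% of the beta and 55.6% of the alpha genes. Of all listed genes, 89.6% of the delta and 87.1% of the alpha genes are in the beta-cell table by Ensembl ID.

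Among AP-1 genes, all 9 listed in beta cells were higher (95% of that table) and 8 past the fold (45.7%), with a median of 1.15. Atf3, a stress-induced partner of Jun, was the highest at a ratio of 3.94 [3.44 to 4.53], Fosb was at 3.34 [2.51 to 4.50] and Maff and Mafk, which encode small Maf proteins, were the lowest at 1.57 [1.44 to 1.71] and 1.22 [1.08 to 1.37]. In delta cells all 4 were higher in both columns, against 71.4% of that table. Jund, the AP-1 subunit that is expressed without a stimulus, had 6.23 in the control and 9.15 and 8.91 in the knockout columns there. Batf had no UMI in 101 control delta cells and 30 in the knockout delta cells. With 3 UMIs in all control cells taken as the floor, the mean of both columns is 4.22-fold higher. The exact 95% interval of the ratio begins lower, at 3.57 over all knockout cells and at 1.52 for the second column alone. No AP-1 gene was listed in alpha cells.

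Of the other early transcription factors, 12 of 12 were higher in beta cells, where 95% of all genes were, and 11 were past the fold (45.7% of that table; median 1.05). Egr4, a relative of Egr1, and Npas4, a factor induced by calcium entry, had the highest ratios, 19.9 [8.26 to 62.8] and 9.28 [4.47 to 22.3], on 5 and 8 control UMIs. At so few control UMIs a gene is listed only if its knockout value is high. With a pseudocount of 0.0519 UMIs per cell their log2 folds fell from 4.32 to 1.57 and from 3.21 to 1.20. Egr4 lay above 99.2% of 133 listed genes of similar level and Npas4 above 97.8% of 232. Hes1, a Notch target, was at 1.65 [1.29 to 2.11] and Bhlhe40 at 1.02 [0.924 to 1.13], an interval that spans 1. In delta cells Klf10 joined Egr1, with 0.238 in the control and 0.435 and 0.487 in the knockout columns. In alpha cells Csrnp1 had 0.366 in the control and 0.497 and 0.441 in the knockout columns, so that Klf4 was the 1 listed factor on the lower side.

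All 3 Id genes listed in alpha cells had the pattern of Id3. Id1 had 2.50 UMIs per control alpha cell and 0.891 and 2.08 in the knockout columns, and Id2 had 1.35 and then 0.441 and 1.14. All 3 listed Id genes were lowest in the first column and closer to the control in the second, at ratios of 0.744, 0.832 and 0.848 there for Id3, Id1 and Id2, so none passed the fold in the second column alone. In beta cells Id2 was at 1.34 [1.22 to 1.46] and Id4 at 3.05 [1.79 to 5.43].

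Of the genes of RNA decay and growth arrest, 7 of 7 were higher in beta cells (95% of that table) and 5 past the fold (45.7%; median 1.07). In delta cells 4 of 4 were higher in both columns (71.4% of that table; median 1.01). After Zfp36, the growth arrest gene Gadd45b was the highest in beta cells, at 2.38 [2.16 to 2.62], and its relatives Gadd45g and Gadd45a were the lowest, at 1.42 [1.37 to 1.47] and 1.12 [0.999 to 1.25]. Gadd45a had 0.267 in the control and 0.522 and 0.500 in the knockout columns of delta cells, and Btg1 1.77, then 2.45 and 2.91. Of the feedback inhibitors 12 of 12 were higher in beta cells (95% of that table), and 8 past the fold (45.7%; median 0.68). They ran from Errfi1 and Tnfaip3, an NF-kB inhibitor (1.29 [1.18 to 1.41]), up to Socs1 of cytokine signalling (1.98 [1.61 to 2.45]) and the phosphatase gene Dusp5 (2.34 [2.01 to 2.75]). In delta cells Socs3 had 0.822 in the control and 1.48 and 1.81 in the knockout columns. Rgs2, which dampens G protein signalling, was lower in the knockout in both cell types that list it, in delta cells with both columns below the control, as for 17.7% of that table. It had 0.648 UMIs per control alpha cell and 0.151 and 0.220 in the knockout columns, and 1.03 per control delta cell and 0.377 and 0.654 in the knockout columns.

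Of the remaining early genes, 8 of 8 were higher in beta cells, where 95% of the table was. Past the fold were 4, a share near the 45.7% of the table (median 0.71). Ier2 was at 2.41 [2.27 to 2.57], Ier5l at 3.39 [1.31 to 10.3] on 6 control UMIs, a ratio above that of 26.3% of 171 genes of similar level, Mcl1, a survival factor, at 1.20 [1.09 to 1.32] and Ier3 at 1.13 [1.09 to 1.17]. In delta cells Ier2 had 4.36 in the control and 5.95 and 7.19 in the knockout columns, and the kinase gene Pim1 0.0891, then 0.319 and 0.385. The heat shock list did not share the direction of Hspa1a in beta cells. Of its 24 listed genes 22 were higher, in a table where 95% of genes were, and only Hspa1a and Hspa1b were lower. Above the median of the table lay 11 (median 0.52, against 0.54), so the list moved much as the whole table did. The small heat shock genes Hspb1 (3.25 [2.58 to 4.13]) and Cryab (3.56 [1.39 to 10.8], on 6 control UMIs) were the highest, but Cryab lay above 35.1% of 171 genes of similar level. In alpha cells Hspa8, the constitutive HSP70, had 11.8 in the control and 8.08 and 8.18 in the knockout columns, and the polyubiquitin gene Ubb 22.3, then 14.8 and 17.2, whereas Hsp90aa1 in delta cells had 6.69, then 7.72 and 8.74.

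**Figure D4:**
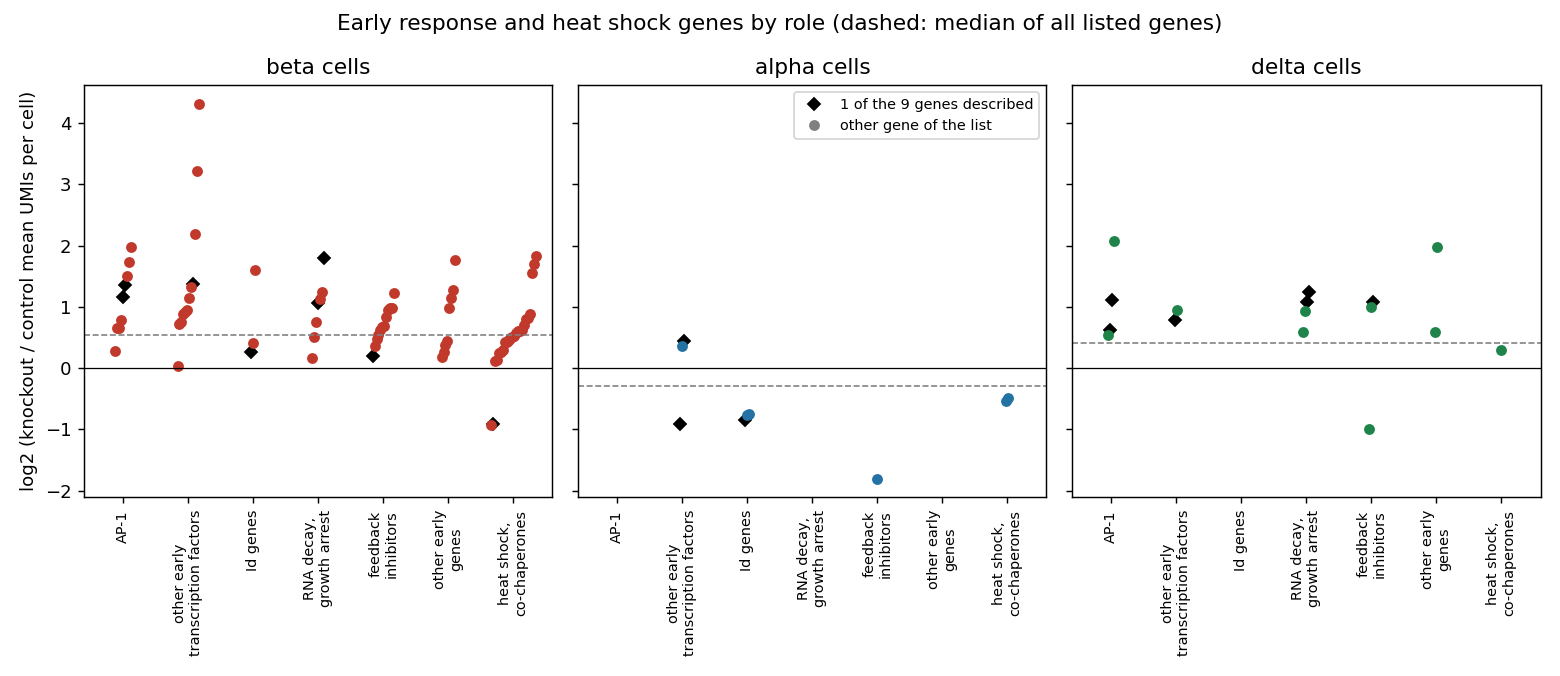
Log2 ratio of knockout over control (y axis) of the listed genes of the early response and heat shock list, grouped by role (x axis) in beta, alpha and delta cells (diamonds: the 9 genes described; circles: other genes of the list; dashed line: median of all listed genes). The medians of the AP-1 genes lie at 1.15 in beta and 0.87 in delta cells, and the 3 Id genes of alpha cells lie below the dashed line. Batf in delta cells, with no control UMI, is drawn with 3 UMIs in all control cells as the floor.

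Genes closest to a member in their log2 folds over the tables that list it were taken by Euclidean distance, over the 203 other shared genes with UMIs in every column for beta and delta cells (3 columns), 158 for beta and alpha (3 columns) and 63 for all tables (5 columns). For Id3 the closest was Id2 (distance 0.30). For Junb they were Actb (0.07), Btg1 (0.12) and Ehf (0.14), and for Fos Zfp644 (0.13), Dbpht2 (0.16) and Serping1 (0.18). Zfp36 had Pabpc1l (0.24) as its closest gene and Fos (0.51) as the third, and the closest to Errfi1 was Glul (0.25). Btg2 had Fermt2 (0.19), and the closest to Egr1, AC149090.1, was at 0.58. Of these 7 lists only those of Junb, Zfp36 and Id3 hold another gene of the 109.

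The members are short genes. All but Errfi1 (15.0 kb) span 2.26 to 5.32 kb, a range that 12.2% of the protein-coding genes listed in beta cells and 43.6% of those in delta cells do not exceed. Listed genes of at most 5.32 kb had a median log2 fold of 0.45 in beta and 0.24 in delta cells, against 0.54 in both for longer genes, and Fos, Junb, Egr1, Btg2 and Zfp36 lay above all 4 medians.

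Transcripts that mark other cells moved in the same libraries, and the labelled cell types were checked against their markers where listed. The beta-cell table lists 6 of 9 beta markers (22059 UMIs per control and 13364 per knockout cell), that of delta cells 1 of 5 delta markers, Rbp4, and the alpha-cell table none of 7 alpha markers, so the labels of the last 2 could be checked little. In knockout beta cells, where the early genes were higher, 4 of 7 alpha markers summed to 114 UMIs per cell against 49.2, the 2 PP markers to 107 against 21.7 and 3 of 4 red cell markers to 22.6 against 0.0639. Sums above the control were also found for 3 of 5 delta markers (64.6 against 39.6), 2 of 5 duct markers (6.36 against 3.34), 3 of 6 mesenchymal markers (0.108 against 0.00844, Col1a1 being at 0 in the control) and 1 of 4 lymphocyte markers (0.150 against 0.0543). Of 6 acinar markers 1, Reg3b, was listed, at 0.114 against 0, and 2 of 7 macrophage markers summed to 0.0699 against 0.410, Cd68 being lower (0.0577 against 0.409) and Lyz2 higher (0.0123 against 0.00121). Of 5 endothelial markers Pecam1 was higher (0.362 against 0.176) and Cdh5 lower (0.00123 against 0.0157). In delta cells 3 of 7 alpha markers, led by Gcg, summed to 165 in the first and 67.4 in the second knockout column against 14.1, though Gc among them was lower (1.41 and 1.37 against 3.12), and C1qa, 1 of 7 macrophage markers, was at 0.833 and 0.346 against 1.04. The beta marker Iapp was at 797 and 698 UMIs per delta cell against 1825, and Rbp4 at 84.2 and 69.1 against 137. In alpha cells 3 of 9 beta markers summed to 251 and 304 against 434. Of the 2 PP markers Ppy was listed there, at 341 and 323 UMIs per cell in the knockout columns against 427. Ppy was at 8.88 per control beta cell. Of 5 delta markers 2 were listed in alpha cells. Sst was at 12.1 in the first and 42.0 in the second column against 36.8, and Rbp4 at 7.43 and 9.90 against 15.7. Both were lowest in the first column, as were the Id genes, but Sst in the second column exceeded the control. The part of these transcripts in the results above was not tested.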

How the data were processed

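The authors' deposited tables, 1 each for beta, alpha and delta cells, list genes with a mean signal per cell and raw and adjusted p-values. The numbers of genes tested, 18527, 16152 and 15393, were inferred from the raw p-values, their ranks and their adjustment for multiple tests. Cell Ranger 3.0.0 and mm10 are named per the submitters' processing notes. Not given in the sources used here were the treatment of doublets and free RNA, the cell filters, the assignment of types and the authors' test. The signal was read as mean UMIs per cell, not scaled for depth, because each column had a cell number that made its values whole within 0.01. That number was inferred from the values themselves and was not checked against a count of cells. Values of the beta-cell knockout pool both mice. The alpha header lacks the name of its first column, so its names were moved by 1. For beta cells 13 gene names that a spreadsheet format had changed to dates were looked up again by Ensembl ID, and 8187 of 8193, 185 of 186 and 230 of 231 IDs were found in GENCODE M21, the source of the mm10 coordinates.

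Ratios, exact 95% intervals (binomial on the UMIs of both groups, Poisson for a level) and medians were computed with Python 3.11.15 and scipy 1.17.1; UMIs of 1 cell are not independent samples, so they cover counting error only. edgeR 4.0.16 (R 4.3.3; quasi-likelihood, Benjamini-Hochberg) was run on the UMIs of the alpha and delta tables with the log of the cell number as offset and 1 residual degree of freedom; the lone control is assumed to vary like the knockout mice. On simulated alpha and delta tables it called 67.5% of 40 genes changed by 1 on the log2 scale in each. The spread between mice in the simulation was set in advance, not estimated from these data, so this share may not hold for the real tables. The deposited p-values of the authors set which genes are listed, and the numbers of genes tested were inferred from them. The p-values were not otherwise used. The depth of a table is the sum of its listed genes. The 9 genes and all lists were chosen with earlier results of these data known. Genes named were the 9 members, per role and cell type the 2 highest and 2 lowest folds of the 109-gene list (all where 4 or fewer were listed), and for each member in several tables the 3 nearest genes by Euclidean distance, of which some are not reported here. The alternatives were scaling to the listed total with and without hormones, centring, a pseudocount, pooled cells, each knockout column alone, a fold of 2 and a minimum of 0.1 UMIs per cell.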

Additional observations from a re-analysis of the deposited data

Results flagged for a closer look

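For 4 genes the sign of the difference was opposite between cell types: knockout beta cells, a pooled value of both mice, were above the control and both alpha columns were below it. The alpha log2 fold minus the beta log2 fold was -1.10 for Id3, -1.18 for Id2, -1.14 for the chaperone gene Hspa8 and -0.73 for the polyubiquitin gene Ubb. The difference was not tested, because no spread between mice is known for beta cells. After centring each table on its median, Id3 was negative in both beta and alpha cells (-0.28 and -0.55), as were Id2 (-0.12 and -0.47) and Ubb (-0.29 and -0.19). Hspa8 alone of the 4 kept opposite signs (0.06 and -0.24). The beta-cell median over all listed genes, 0.54, exceeds the median of beta-cell genes of similar level for Id3 (0.44), Id2 (0.33) and Ubb (0.23). Among genes of similar level in beta cells, Id2 had a higher log2 fold than 64.1% of 1131 and Ubb than 52.5% of 80. Id3 had a higher one than only 17.5% of 1945. For Id2 and Ubb the sign after centring thus depends on the genes used for centring.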

How the results depend on the processing

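Over 17 pairs of a member and a cell type, 110 of 113 alternative values had the sign of the reported log2 fold. The 3 others were beta-cell values, of Id3 (-0.28) and Errfi1 (-0.34) after centring and of Errfi1 (-0.05) when scaled to the listed total without hormones. Of all listed genes past the fold, at a fold of 2 there were 1626 higher and 99 lower in beta, 5 and 22 in alpha and 46 and 15 in delta cells. Scaled to the listed total, there were 6816 and 112, 35 and 35, and 146 and 17. Centred, there were 1314 and 343, 47 and 26, and 45 higher in delta cells. With a mean of at least 0.1 UMIs per cell, 2417 were higher in beta cells. Without either knockout column, the counts were 21 to 24 higher and 50 to 64 lower in alpha and 81 to 89 higher and 29 to 44 lower in delta cells. Of the 109 genes, 26 in beta and 2 in delta cells were lower after centring. Without the first knockout column, Id3 in alpha cells was at -0.43 and no longer past the fold, and without the second it was at -1.44; Klf4 there was at -1.26 and -0.64. No paired analysis was possible because there was 1 control mouse and the labels give no shared replicate numbers. Genes not listed were not analysed here, and no spread is known between control mice or, for beta cells, between knockout mice.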

Other observations

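Within the wider list, the genes shared by beta and delta cells did not differ from each other in 1 direction. Ier2 had the larger ratio in beta cells (delta over beta 0.609 [0.538 to 0.689], counting error only), as did Btg1 (0.673 [0.563 to 0.804]) and Jund (0.848 [0.770 to 0.933]). Gadd45a (1.72 [1.11 to 2.66]) and Socs3 (1.39 [1.08 to 1.80]) had the larger ratio in delta cells, like Errfi1. For Klf10 (0.766 [0.478 to 1.23]), Pim1 (1.94 [0.957 to 3.95]) and Hsp90aa1 (0.988 [0.897 to 1.09]) the interval spans 1. Rgs2, on the lower side in both alpha and delta knockout cells, is not among the genes listed in beta cells.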
